A study of Mus musculus with 12 samples.

Results

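The 40 genes described here encode the enzymes that break down fatty acids in mitochondria and peroxisomes, the peroxins that build peroxisomes, 2 regulators of these programs (Ppara and Ppargc1b) and 3 lipases that release fatty acids from stored lipid. They were taken by gene symbol from the deposited count table, where all 40 were found among 40847 gene rows. They were measured by RNA-seq in FLAMs (fetal liver alveolar-like macrophages), mouse cells cultured from fetal liver as a model of the macrophages of the lung's air spaces. The cells were cultured in GM-CSF (30 ng/ml, in all groups), with or without recombinant human TGFβ1 (20 ng/ml), and with or without the synthetic lipopeptide Pam3CSK4 (Pam3, 25 ng/ml for 18 h), a ligand of the receptor TLR2. This gives 4 groups of 3 libraries: untreated, TGFβ, Pam3, and Pam3+TGFβ. The series asks how TGFβ changes the answer of these cells to TLR2 activation. The labels do not say whether the libraries of a group came from separate cultures or animals, so the p-values measure the spread between these libraries, which may be technical.

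In mitochondrial β-oxidation, long-chain fatty acids enter through the carnitine shuttle and are shortened by repeated rounds of dehydrogenation, hydration, a second dehydrogenation and thiolysis, and the electrons pass through the electron transfer flavoprotein to the respiratory chain. Peroxisomes shorten very long and branched chains first, in a pathway whose acyl-CoA oxidases make hydrogen peroxide, and hand the products on to mitochondria. Alveolar macrophages take up and clear the lipids of lung surfactant, and lipid handling is one of the properties by which they are known.

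The library totals ran from 34036650 to 44374115 counts. The macrophage identity was seen in all 12 libraries, with Ptprc, the pan-leukocyte antigen CD45, at mean levels of 510 to 897 CPM over the groups and Csf1r, the receptor of the macrophage growth factor CSF1, at 820 to 1240 CPM. Erythroid, mast cell, lymphocyte and fibroblast markers each summed to at most 1.2 CPM in any library, and the hepatocyte list to 5.8 to 10.2 CPM with Ttr at 0. Nearly all of the latter was Afp, alpha-fetoprotein, at means of 5.77 CPM untreated, 5.9 CPM with TGFβ, 7.02 CPM with Pam3 and 9.27 CPM with both. The endothelial list summed to 2 to 4 CPM, in which Pecam1 went from 0.895 to 2.46 CPM with TGFβ, Cdh5 from 0.888 to 0.0514 CPM and Kdr from 0.865 to 0.082 CPM. Macrophage markers themselves moved with TGFβ: the 8 listed genes summed to between 32400 and 36600 CPM in the untreated libraries and between 17100 and 18000 CPM with TGFβ. Most of that sum was Lyz2, the lysozyme gene, at 29800 ± 2120 CPM untreated and 15200 ± 460 CPM with TGFβ (SD, n = 3). Itgam, the integrin CD11b, went from 1090 to 38.8 CPM, while Mertk was at 223 and 222 CPM and Fcgr1 at 81.1 and 91.3 CPM. The alveolar macrophage list summed to 8390 to 8860 CPM untreated and 8840 to 9370 CPM with TGFβ, but its members moved in opposite directions. The scavenger receptor gene Marco went from 2150 to 123 CPM, Mrc1 from 1860 to 970 CPM and Fabp4 from 31.1 to 0.132 CPM, whereas Siglecf went from 32.1 to 300 CPM, Ear1 from 5.05 to 72.3 CPM and Chil3 from 2950 to 5040 CPM. The summed level of the neutrophil list, with Mpo at 0 in all libraries, was 12.9 to 15.6 CPM in the untreated libraries and 2.96 to 4.21 CPM with TGFβ. That fall was in S100a8, at mean levels of 13.8 and 3.07 CPM, whereas Ngp was at 0.346 and 0.623 CPM (edgeR adjusted p 0.273) and Ly6g and Elane at no more than 0.105 CPM in any library. The dendritic cell list summed to 4.48 to 5.62 CPM untreated and 1.23 to 1.94 CPM with TGFβ, and to 3.88 to 5.18 CPM with Pam3 and 1.69 to 2.53 CPM with both. Most of that fall was in Zbtb46, at 179, 173 and 177 counts untreated, 44, 45 and 74 with TGFβ, 171, 132 and 138 with Pam3, and 55, 42 and 85 with both. Xcr1 was at 14, 13 and 18, then 18, 5 and 0, then 19, 13 and 15, then 14, 21 and 26 counts in the same order. Flt3 had at most 1 count and Ccr7 at most 9 in any library. The part of these shifts in the results that follow was not tested. In such bulk samples, fewer cells of a kind and less RNA per cell cannot be told apart.

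Levels are CPM, a gene's count relative to its library's total counts, after scaling of the libraries, and fold changes are on the log2 scale. A gene was called where the adjusted p of edgeR's quasi-likelihood test (Benjamini-Hochberg, over all 14749 tested genes) was under 0.05. Of the 40 genes, 39 had enough counts to be tested. The exception was Ppara, the nuclear receptor best known for driving fatty acid oxidation in liver. It had 3 counts in TGFβ replicate 3, 5 in Pam3 replicate 2 and 0 in the other 10 libraries, where 0 counts allows a level of up to 0.0678 to 0.0953 CPM, depending on the library (3 counts, counting error only). Per kb of transcript, the mean levels of the 39 tested genes in untreated cells ran from 2.05 CPM per kb for Pex7, a receptor that imports proteins into peroxisomes, to 113 CPM per kb for Mgll, the lipase that splits monoacylglycerols. Etfb, a subunit of the electron transfer flavoprotein, was also at 113 CPM per kb, and Cat, the catalase that removes peroxisomal hydrogen peroxide, was at 91.2 CPM per kb.

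TGFβ moved these genes in both directions. Without Pam3, 10 of the 39 were higher and 9 lower in TGFβ than in untreated cells, which is 48.7% of them, where 51% of all tested genes were called and 61.2% of the 9366 tested genes at or above the level of the lowest tested member. With Pam3, 13 were higher and 12 lower in Pam3+TGFβ than in Pam3 cells, which is 64.1%, where the 2 backgrounds were 45.3% and 54.8%. By direction, the background without Pam3 was 22.9% higher and 28.1% lower over all tested genes (27.4% and 33.8% at the members' levels), and with Pam3 it was 21.5% higher and 23.8% lower (27.5% and 27.3%). The median log2 fold change of the 39 was 0.01 without Pam3 (-0.0084 over all tested genes) and 0.06 with Pam3 (-0.0017 over all tested genes). The median size of the change was 0.17 without Pam3 (0.32 over all tested genes, 0.24 at the members' levels) and 0.22 with it (0.28 and 0.20). The groups did not overlap for 21 and 29 members, where 56.4% and 55.1% of all tested genes did not.

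The comparisons with and without Pam3 share no library, and they can be set side by side. In both, 17 members were called, each in the same direction (9 higher, 8 lower), 12 in neither, 2 without Pam3 alone and 8 with Pam3 alone. Of all tested genes, 35% were called in both (14.4% higher in both, 18.8% lower in both) and 38.8% in neither. At or above the level of the lowest tested member the shares were 43.3% (18.5% and 22%) and 27.3%. Whether the effect differs between the Pam3 conditions is a separate test, given further down. Across the 39 genes the log2 fold changes of the 2 comparisons correlated with Pearson r 0.91 and Spearman rho 0.84. Over all tested genes the values were 0.77 and 0.67. Genes are not independent replicates, and no p is given.

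**Figure D1:**
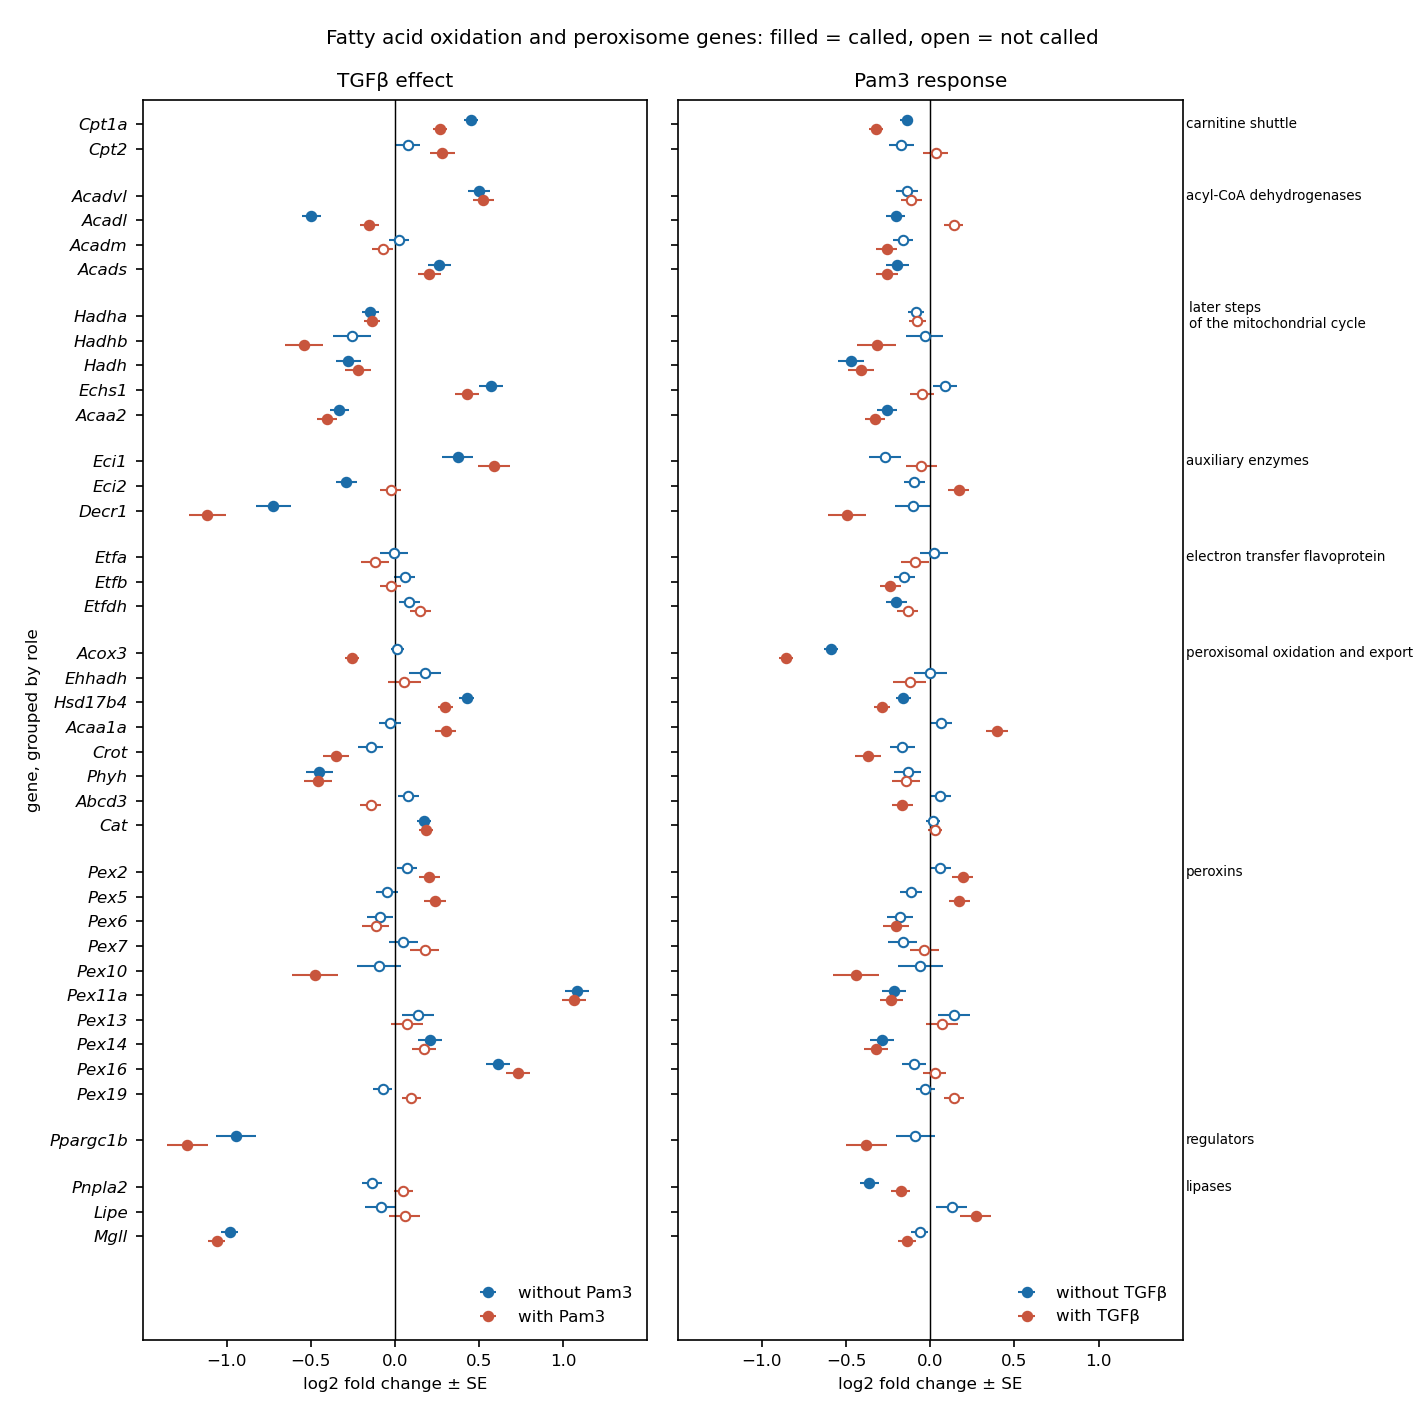
Log2 fold change (x axis, points, with the standard error as bars) of the 39 tested genes (y axis, grouped by role) for TGFβ (left, without Pam3 in blue and with Pam3 in red) and for Pam3 (right, without TGFβ in blue and with TGFβ in red), with called genes as filled points. Pex11a (1.08 and 1.06) lies farthest to the right and Ppargc1b (-0.94 and -1.24), Mgll (-0.98 and -1.06) and Decr1 (-0.72 and -1.11) farthest to the left in the TGFβ panel, and Acox3 (-0.59 and -0.86) farthest to the left in the Pam3 panel.

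The promoters of 4 members are printed because they belong to the genes with the largest rise and the largest fall with TGFβ without Pam3 (Pex11a and Mgll), the entry enzyme of the mitochondrial pathway (Cpt1a) and a gene pair that shares its start region (Hadha and Hadhb). Each runs 5′ to 3′ on the gene's strand, from 250 bases before to 50 bases after the start in RefSeq's promoter table of build GRCm38.p6, and was placed on GRCm39 by an exact match. Capitals mark matches, on either strand, to AGGTCA (the nuclear receptor half-site, also contained in the PPAR and RXR element), CAGAC (the SMAD half-site, also contained in part in the SMAD box), CACGTG (an E-box) and CCGGAAGT (an ETS core with flanks). The first is Pex11a at chr7:79392830-79393129, minus strand, followed by Mgll at chr6:88701144-88701443, plus strand, Cpt1a at chr19:3373051-3373350, plus strand, and Hadha at chr5:30359929-30360228, minus strand.
Pex11a: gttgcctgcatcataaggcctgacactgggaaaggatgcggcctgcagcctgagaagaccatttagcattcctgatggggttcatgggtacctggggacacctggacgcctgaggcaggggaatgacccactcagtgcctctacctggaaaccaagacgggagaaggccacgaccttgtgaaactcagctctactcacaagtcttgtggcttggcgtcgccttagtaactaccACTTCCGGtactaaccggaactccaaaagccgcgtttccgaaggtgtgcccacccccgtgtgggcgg
Mgll: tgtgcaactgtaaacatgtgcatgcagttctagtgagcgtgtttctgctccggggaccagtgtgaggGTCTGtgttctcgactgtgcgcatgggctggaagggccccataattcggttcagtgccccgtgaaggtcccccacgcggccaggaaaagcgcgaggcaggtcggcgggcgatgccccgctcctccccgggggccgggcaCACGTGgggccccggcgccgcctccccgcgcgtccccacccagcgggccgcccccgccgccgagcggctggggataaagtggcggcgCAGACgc
Cpt1a: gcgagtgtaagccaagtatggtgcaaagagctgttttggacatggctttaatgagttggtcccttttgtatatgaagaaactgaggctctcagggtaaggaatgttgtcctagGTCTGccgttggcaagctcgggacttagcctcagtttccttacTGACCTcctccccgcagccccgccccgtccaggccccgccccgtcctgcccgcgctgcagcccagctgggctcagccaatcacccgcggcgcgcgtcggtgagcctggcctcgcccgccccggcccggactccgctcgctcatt
Hadha: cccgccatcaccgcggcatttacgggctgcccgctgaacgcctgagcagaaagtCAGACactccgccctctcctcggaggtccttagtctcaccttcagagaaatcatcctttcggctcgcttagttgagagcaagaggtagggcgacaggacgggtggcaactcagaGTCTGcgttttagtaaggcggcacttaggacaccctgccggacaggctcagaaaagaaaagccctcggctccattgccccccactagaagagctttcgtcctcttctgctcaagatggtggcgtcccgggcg

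The Pex11a window holds 1 ETS match, centred just before the start, and no SMAD half-site or nuclear receptor half-site. The printed Mgll window holds 2 SMAD half-sites and 1 E-box (a second Mgll window in the table, chr6:88701436-88701735, holds 5 SMAD half-sites and no E-box), the Cpt1a window 1 nuclear receptor half-site and 1 SMAD half-site, and the Hadha window 2 SMAD half-sites. In GENCODE M39 on GRCm39 the protein-coding genes span chr7:79385705-79392879 (Pex11a, 3 exons), chr6:88652108-88805342 (Mgll, 8 exons), chr19:3371853-3437996 (Cpt1a, 19 exons) and chr5:30323302-30360187 (Hadha, 20 exons), so the printed Mgll, Cpt1a and Hadha windows belong to RefSeq starts inside the annotated genes. Hadha and Hadhb start 273 bp apart on opposite strands, and their windows share 228 bp. The table had 40 windows for 34 of the 40 genes. Decr1, Hsd17b4, Pex2, Pex19, Ppargc1b and Acaa2 had no entry. CAGAC was found in 62.5% of the 40 windows and in 49.6% of all 32851 windows, AGGTCA in 15% and 16.3%, CACGTG in 5% and 7.15%, and CCGGAAGT in 7.5% and 3.89%. The GC box GGGCGG was in 77.5% and 35.7%. The PPAR and RXR element (AGGTCA in 2 direct copies, 1 base apart) was in 0 of the 40 and in 0.0396% of all, the SMAD box GTCTAGAC in 0 and 0.213%, and an NF-kB motif (GGG, any 2 bases, TTTCC) in 0 and 1.63%. A match is a description of these letters in the window and not of binding.

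In the carnitine shuttle, TGFβ raised Cpt1a, the outer-membrane enzyme that commits long-chain fatty acids to oxidation. Its level was 262, 255 and 269 CPM untreated, 349, 361 and 363 CPM with TGFβ, 235, 230 and 247 CPM with Pam3, and 282, 282 and 293 CPM with both. The TGFβ libraries lay above those without it in either Pam3 condition, with no overlap. The log2 fold change with TGFβ was 0.45 (SE 0.04, adjusted p 1.02e-09) without Pam3 and 0.27 (SE 0.04, adjusted p 6.68e-06) with it. Cpt2, which remakes the acyl-CoA inside the mitochondrion, rose with TGFβ where Pam3 was present (0.28, adjusted p 0.00297), and its value without Pam3 was 0.08 (adjusted p 0.414).

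The acyl-CoA dehydrogenases, which carry out the first step of each round on chains of different length, did not move together. Acadvl, for very long chains, stood at 61.8, 68 and 58.4 CPM in untreated cells and at 89.4, 94 and 82.7 CPM with TGFβ, and rose by 0.50 without Pam3 and 0.53 with it (SE 0.06 each, adjusted p 2.97e-07 and 1.63e-07). Acads, for short chains, rose by 0.26 and 0.20 (adjusted p 0.00214 and 0.0177); the second call was lost without Pam3 replicate 1, Pam3 replicate 2 or Pam3+TGFβ replicate 3 (adjusted p 0.0532, 0.0679 and 0.0708). Acadl, for long chains, went the other way: 80.8, 80 and 79.5 CPM untreated, 57.2, 59.5 and 53.5 CPM with TGFβ, 70.1, 72.1 and 66.2 CPM with Pam3, and 63.4, 62.3 and 61.8 CPM with both. All TGFβ libraries were below their counterparts, and the gap was wider without Pam3. The log2 fold change of Acadl was -0.50 (SE 0.06, adjusted p 3.6e-08) without Pam3 and -0.15 (SE 0.06, adjusted p 0.0279) with it, and the latter was lost when 1 of 4 libraries was omitted (Pam3 replicate 1, 0.0882; Pam3 replicate 2, 0.154; Pam3+TGFβ replicate 2, 0.0726; Pam3+TGFβ replicate 3, 0.0815). Acadm, for medium chains, was at 41.3, 42.5 and 40.7 CPM in untreated cells and 43, 42.2 and 41.6 CPM with TGFβ, ranges that overlap, and was not called for TGFβ in either condition (0.03 and -0.07, adjusted p 0.75 and 0.354).

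Among the 5 later enzymes of the mitochondrial cycle, Echs1, the short-chain hydratase, was higher with TGFβ and the others were lower or not called. Echs1 rose by 0.57 without Pam3 and 0.43 with it (SE 0.07 each, adjusted p 2.35e-07 and 1.74e-05). Acaa2, the mitochondrial thiolase, fell by 0.33 and 0.40 (SE 0.06 each, adjusted p 3.46e-05 and 2.87e-06). Hadh, the short-chain hydroxyacyl-CoA dehydrogenase, fell by 0.28 and 0.22 (adjusted p 0.00343 and 0.0234). The Hadh calls were lost without TGFβ replicate 3 (adjusted p 0.0565) in the first comparison, and without Pam3 replicate 2 or 3 or Pam3+TGFβ replicate 1 or 2 (0.198, 0.0699, 0.0677 and 0.116) in the second.

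Hadha and Hadhb encode the α and β subunits of the mitochondrial trifunctional protein, which performs the last 3 steps on long chains. Hadha was at 230, 242 and 215 CPM untreated, 219, 208 and 194 CPM with TGFβ, 217, 221 and 210 CPM with Pam3, and 200, 199 and 190 CPM with both. The untreated and TGFβ libraries overlap, and those with Pam3 do not. The log2 fold change of Hadha with TGFβ was -0.15 and -0.14 (SE 0.05 each, adjusted p 0.0143 and 0.0231). Without untreated replicate 1 or 2 or TGFβ replicate 2 or 3 the first was not called (adjusted p 0.0715, 0.0626, 0.0618 and 0.2), nor was the second without Pam3 replicate 1 or 2 or Pam3+TGFβ replicate 3 (0.0799, 0.118 and 0.101). Hadhb fell by 0.54 in the presence of Pam3 (SE 0.11, adjusted p 0.000315) and its value without Pam3 was -0.26 (adjusted p 0.0584). The level per kb of Hadha over that of Hadhb was 6.53 ± 0.418 (SD, n = 3) in the untreated group, 7.06 ± 0.535 in the TGFβ group, 6.37 ± 0.892 in the Pam3 group and 8.3 ± 0.229 with both agents. Of the 100-base stretches of the Hadhb transcript, 53.2% also occur in the copies Hadhb-ps and Gm9108, so its count is uncertain, and how reads with several matches were counted is not stated. Exons of Hadha overlap those of Garem2 over 47.5% of its transcript, on the other strand, and Garem2 was at a mean of at most 0.206 CPM in any group.

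The auxiliary enzymes handle the double bonds of unsaturated fatty acids. Decr1, the mitochondrial dienoyl-CoA reductase, was at 12.6, 14.8 and 13.9 CPM untreated, 9.05, 8.07 and 7.91 CPM with TGFβ, 13.2, 12.1 and 13.1 CPM with Pam3, and 6.49, 6.16 and 5.15 CPM with both. Every TGFβ library was below every library without it. Decr1 was 1.65-fold lower with TGFβ without Pam3 and 2.17-fold lower with it (log2 fold change -0.72, SE 0.11, adjusted p 3.02e-06, and -1.11, SE 0.11, adjusted p 5.1e-09). Eci1, an isomerase that shifts double bonds, rose by 0.37 and 0.59 (SE 0.09 each, adjusted p 0.0016 and 1.23e-05). Eci2, a second such isomerase, fell by 0.29 without Pam3 (SE 0.06, adjusted p 0.000372) and was at -0.03 with it (adjusted p 0.773).

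The electron transfer flavoprotein genes Etfa, Etfb and Etfdh, which carry electrons from the dehydrogenases to ubiquinone, were not called for TGFβ, with log2 fold changes from -0.12 to 0.15. Of the Etfb stretches, 65.2% are shared with the copy Etfbl, and exons of Etfdh overlap those of Ppid over 25.2% of its transcript. Ppid itself was at mean levels of 11.7 CPM untreated, 23.2 CPM with TGFβ, 15.1 CPM with Pam3 and 22.2 CPM with both. Its log2 fold changes were 0.99 and 0.56 for TGFβ without and with Pam3, and 0.36 and -0.07 for Pam3 without and with TGFβ (edgeR adjusted p 1.33e-09, 1.38e-05, 0.00716 and 0.591). Its part in the Etfdh counts was not tested.

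In the peroxisomal oxidation group of 8, TGFβ raised Hsd17b4, the multifunctional enzyme of the branched-chain pathway, and Cat, and lowered Phyh, which starts the α-oxidation of phytanic acid. Hsd17b4 was at 174, 183 and 172 CPM in untreated cells and 238, 245 and 229 CPM with TGFβ, and rose by 0.43 and 0.30 (SE 0.05 each, adjusted p 1.8e-08 and 5.9e-06). Cat was at 230, 247 and 238 CPM untreated, 268, 275 and 263 CPM with TGFβ, 239, 236 and 248 CPM with Pam3, and 282, 272 and 268 CPM with both, without overlap in either Pam3 condition. The change of Cat was small next to its level, 1.13-fold and 1.14-fold (log2 fold change 0.17 and 0.18, SE 0.04 each, adjusted p 0.000908 and 0.000508). Phyh fell by 0.45 and 0.46 (SE 0.08 each, adjusted p 6.25e-05 and 6.55e-05). Called in the presence of Pam3 and not without it were Acaa1a, the peroxisomal thiolase (0.30, adjusted p 0.000359), Acox3, an oxidase of branched chains (-0.25, adjusted p 1.51e-05), and Crot, which makes the carnitine esters that leave the peroxisome (-0.35, adjusted p 0.000409). Without Pam3 their values were -0.03, 0.01 and -0.15, and the difference between the conditions was called for Acaa1a and Acox3 and not for Crot (adjusted p 0.224). Ehhadh, the other bifunctional enzyme, and Abcd3, a transporter of fatty acids into peroxisomes, were not called.

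Pex11a, which promotes the elongation and division of peroxisomes, had the largest rise of the 39 with TGFβ in both conditions. It was at 22.3, 22.1 and 22 CPM untreated, 45.1, 48.2 and 47.3 CPM with TGFβ, 19.5, 18.6 and 19.2 CPM with Pam3, and 36.7, 42.7 and 40.4 CPM with both. Each TGFβ library lay far above each library without it. The rise was 2.12-fold without Pam3 and 2.09-fold with it (log2 fold change 1.08 and 1.06, SE 0.07 each, adjusted p 1.14e-12 and 2.43e-12). Pex16, needed for inserting peroxisomal membrane proteins, was at 24, 24 and 23.2 CPM untreated, 36.6, 37.5 and 34.6 CPM with TGFβ, 21.5, 22.6 and 22.6 CPM with Pam3, and 34.9, 39.4 and 36.4 CPM with both. Its groups did not overlap either, and Pex16 rose 1.53-fold and 1.66-fold (log2 fold change 0.61 and 0.73, SE 0.07 each, adjusted p 6.63e-08 and 3.61e-09).

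Of the 10 peroxins, 3 were called higher with TGFβ without Pam3 (30% of them, where 51% of all tested genes and 61.2% of those at the members' levels were called), and 4 higher and 1 lower with it (50%, where 45.3% and 54.8% were). Pex14, a docking protein of the import pore, rose by 0.21 without Pam3 (adjusted p 0.0147; 0.0677 without untreated replicate 3). Pex5, the import receptor for most matrix proteins, and Pex2, a ubiquitin ligase that recycles it, rose by 0.24 and 0.20 in the presence of Pam3 (adjusted p 0.00355 and 0.0077; Pex2 0.0501 without Pam3+TGFβ replicate 2). Pex10, another ligase of the same complex, fell by 0.48 there (adjusted p 0.00544; 0.0588 without Pam3+TGFβ replicate 3). Pex6, Pex7, Pex13 and Pex19 were not called for TGFβ.

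TGFβ lowered Mgll, whose product frees the last fatty acid from stored or membrane-derived glycerides. Its level was 409, 446 and 390 CPM untreated, 215, 205 and 211 CPM with TGFβ, 381, 384 and 428 CPM with Pam3, and 197, 190 and 186 CPM with both. Its TGFβ libraries were all below the others by a wide margin. Mgll was 1.98-fold lower with TGFβ without Pam3 and 2.08-fold lower with it (log2 fold change -0.98 and -1.06, SE 0.05 each, adjusted p 2.09e-14 and 5.79e-15).

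The other 2 lipases act before Mgll on stored triglyceride. Pnpla2, the first lipase in line (ATGL), was at 124, 132 and 121 CPM untreated, 117, 107 and 119 CPM with TGFβ, 97.5, 95.8 and 100 CPM with Pam3, and 93.7, 101 and 109 CPM with both. The untreated libraries were the highest, and the groups with Pam3 overlap. Pnpla2 was not called for TGFβ (-0.14 and 0.05, adjusted p 0.0509 and 0.519). Lipe, the hormone-sensitive lipase, was at 17.2, 15 and 15.9 CPM untreated, 17, 14 and 14.3 CPM with TGFβ, 17.4, 18.9 and 16.2 CPM with Pam3, and 17.5, 18.9 and 18.3 CPM with both. Its groups overlap for TGFβ, and it was not called (-0.09 and 0.06, adjusted p 0.468 and 0.648).

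Ppargc1b, the coactivator PGC-1β of mitochondrial and oxidative genes, fell with TGFβ. It was at 39, 29.2 and 39.3 CPM untreated, 16.5, 18.8 and 20.5 CPM with TGFβ, 33.7, 33.3 and 34.1 CPM with Pam3, and 16.3, 11.6 and 15 CPM with both. The lowest library without TGFβ was above the highest with it, although untreated replicate 2 stood well below its group. Ppargc1b was 1.92-fold lower without Pam3 and 2.35-fold lower with it (log2 fold change -0.94, SE 0.12, adjusted p 1.61e-06, and -1.24, SE 0.12, adjusted p 6.04e-08).

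**Figure D2:**
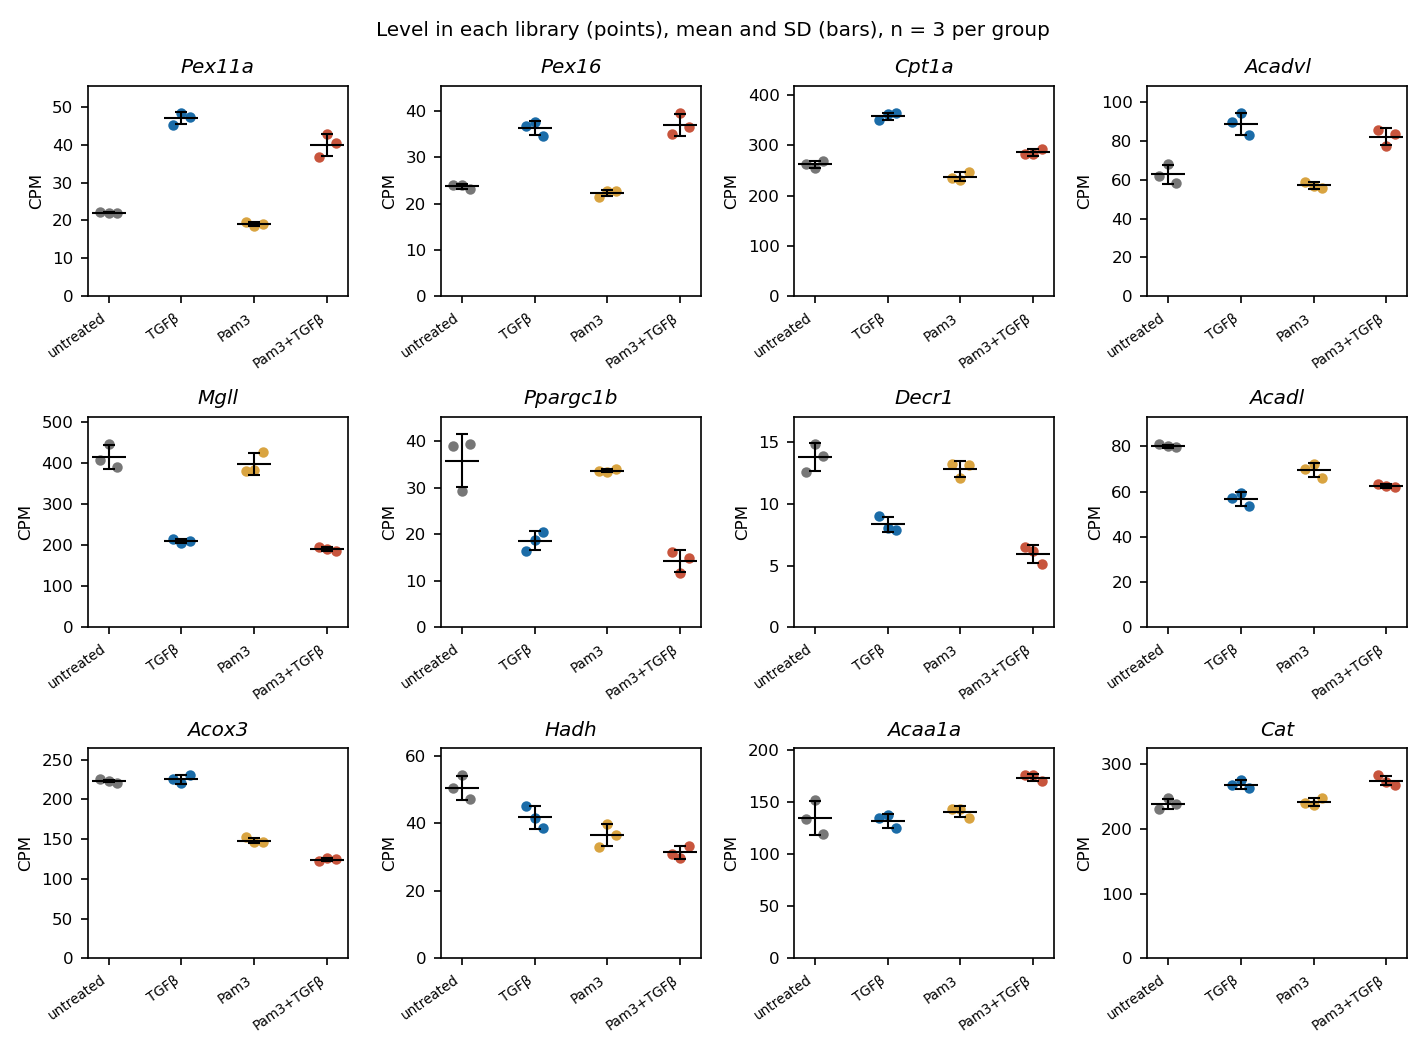
Level in CPM (y axis, from 0, a separate scale per gene) of 12 of the genes in each library (points) by group (x axis), with the mean and SD as bars (n = 3). Pex11a, Pex16, Cpt1a and Acadvl are higher and Mgll, Ppargc1b, Decr1 and Acadl lower in the TGFβ libraries than in their counterparts without TGFβ, and Acox3 is at 122 to 152 CPM in the 6 Pam3 libraries against 220 to 230 CPM in the other 6.

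Pam3 lowered part of these genes and, without TGFβ, raised none that passed the test. Without TGFβ, 0 of the 39 were called higher and 11 lower, where 9.62% of all tested genes were called higher and 8.66% lower (18.3% in all). At or above the level of the lowest tested member, 13.2% of genes were called higher and 12.2% lower (25.4% in all). The count of 0 higher was from edgeR, and it was also 0 at an unadjusted p under 0.05, 0 with DESeq2 and 0 with limma-trend, but 2 without untreated replicate 2. With TGFβ, 5 were called higher and 19 lower with Pam3, where 20.4% and 18.1% of all tested genes were (38.5% in all), and 27.2% and 22.3% at the members' levels (49.5% in all). With upper-quartile scaling, which shifts all genes by -0.06 in this comparison, the split was 1 higher and 22 lower among the members and 2477 higher and 3489 lower among all tested genes, where it was 3008 and 2670 with the main scaling. The median log2 fold change of the 39 was -0.14 in both conditions, against 0.00037 and -0.02 over all tested genes. The groups did not overlap for 14 members without TGFβ and 26 with it, where 31.4% and 50.4% of all tested genes did not. Macrophage markers moved with Pam3 as well. The macrophage list summed to 35400 to 36600 CPM with Pam3 alone and to 26200 to 26900 CPM with both agents, against 17100 to 18000 CPM with TGFβ alone. In cells with TGFβ, Marco went from 123 to 568 CPM, Itgam from 38.8 to 101 CPM, Adgre1 from 145 to 271 CPM and Afp from 5.9 to 9.27 CPM with Pam3, while Siglecf went from 300 to 154 CPM. Without TGFβ, Marco went from 2150 to 3300 CPM and Adgre1 from 303 to 477 CPM. Other listed markers went down there. In unscaled counts, Mrc1 was at 75660, 69589 and 67626 untreated and 58341, 57370 and 43950 with Pam3. Siglecf was at 1305, 1252 and 1122 against 901, 1021 and 867. Mrc1 also went down in cells with TGFβ, from 34938, 39629 and 36853 counts to 21121, 23306 and 28207 with both agents. Their part in the responses of the members was not tested.

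**Figure D3:**
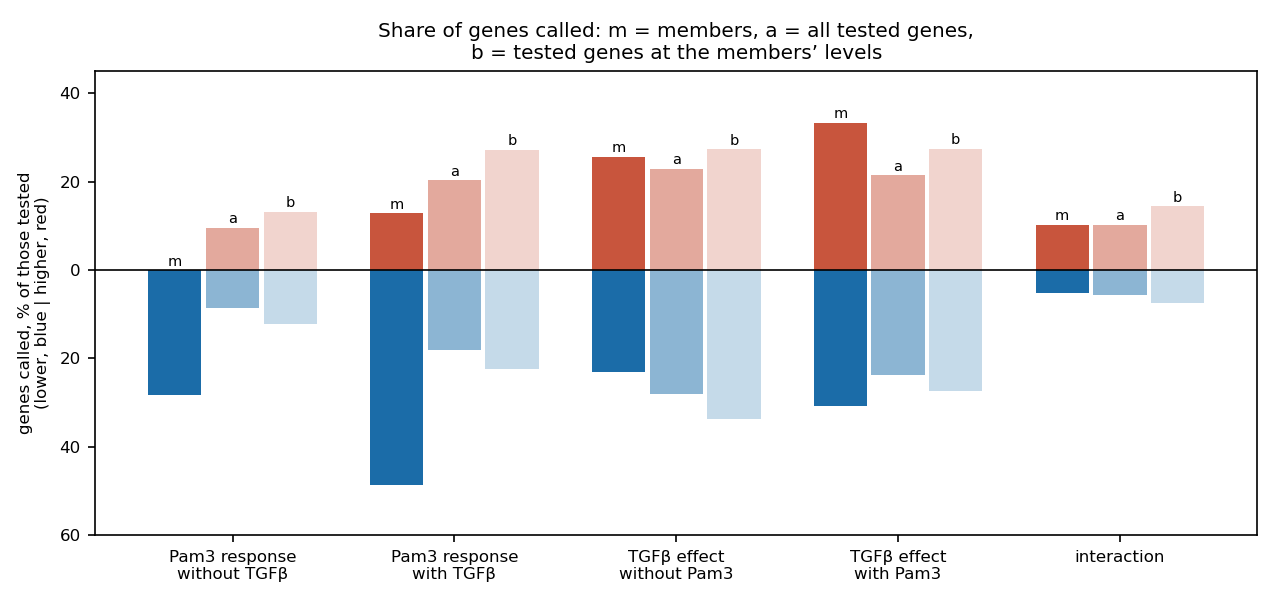
Share of genes called (y axis, percent of those tested, higher in red above 0 and lower in blue below 0) in the 5 comparisons (x axis) for the 39 tested genes described here (m), all 14749 tested genes (a) and the 9366 tested genes at or above the level of the lowest tested member (b). The blue bar of the members reaches below both backgrounds in the Pam3 responses (11 and 19 of 39) and in the TGFβ effect with Pam3 (12 of 39). In that TGFβ effect the red bar (13 of 39) also reaches above both backgrounds. For the Pam3 response without TGFβ the red bar is at 0.

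The 2 Pam3 responses share no library. In both, 9 members were called, all lower: Cpt1a, Acads, Hadh, Acaa2, Acox3, Hsd17b4, Pex11a, Pex14 and Pnpla2. Of all tested genes, 14.6% were called in both (7.95% higher in both, 6.15% lower in both) and 57.8% in neither. At the members' levels the shares were 20.5% (11.1% and 8.79%) and 45.6%. Another 2 members passed the test in cells without TGFβ and not in those with it, 15 the reverse, and 13 in neither. Across the 39 genes, the 2 sets of log2 fold changes correlated with Pearson r 0.62 and Spearman rho 0.48, against 0.49 and 0.48 over all tested genes, a description across genes with no p.

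Acox3 fell most with Pam3 in both conditions. It was at 225, 223 and 221 CPM untreated, 226, 220 and 230 CPM with TGFβ, 152, 146 and 146 CPM with Pam3, and 122, 126 and 125 CPM with both. All 6 Pam3 libraries lay far below the other 6. Acox3 was 1.51-fold lower without TGFβ and 1.81-fold lower with it (log2 fold change -0.59, SE 0.04, adjusted p 7.6e-11, and -0.86, SE 0.04, adjusted p 5.81e-15).

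In the mitochondrial cycle, Hadh was at 50.5, 54.2 and 47.1 CPM untreated, 33.1, 39.7 and 36.7 CPM with Pam3, 45.2, 41.6 and 38.6 CPM with TGFβ, and 31, 29.8 and 33.4 CPM with both. Its Pam3 libraries lay below their counterparts without overlap. Hadh fell by 0.47 without TGFβ and by 0.41 with it (SE 0.08 each, adjusted p 4.85e-05 and 9.7e-05). Acaa2 was at 98.2, 105 and 97.5 CPM untreated, 81.8, 87.9 and 81.7 CPM with Pam3, 86.8, 76.9 and 75.6 CPM with TGFβ, and 62.8, 63.1 and 64.4 CPM with both. The lowest Acaa2 levels were those with both agents, in all 3 libraries. Acaa2 fell by 0.26 and 0.33 with Pam3 (SE 0.06 each, adjusted p 0.00209 and 5.55e-05).

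Cpt1a fell with Pam3 by 0.14 without TGFβ (SE 0.04, adjusted p 0.017) and by 0.32 with it (SE 0.04, adjusted p 4.83e-07). The first call was lost without untreated replicate 1 or 3 or Pam3 replicate 1 or 2 (adjusted p 0.0616, 0.085, 0.0885 and 0.127). Acadl fell by 0.21 without TGFβ (adjusted p 0.00998; 0.0576 without Pam3 replicate 3), and with TGFβ its value was 0.14 (adjusted p 0.0502). Acadm was at 36.2, 36.6 and 38.6 CPM with Pam3 and at 33.9, 35.2 and 36.8 CPM with both agents, below the untreated and TGFβ levels given above. Acadm was not called without TGFβ (-0.16, SE 0.06, adjusted p 0.0685) and fell by 0.26 with it (SE 0.06, adjusted p 0.00118). Hadha, Echs1, Acadvl, Cpt2, Eci1 and Etfa were not called for Pam3.

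Further members of these pathways were called for Pam3. Without TGFβ, Acads fell by 0.20, Etfdh by 0.20 and Hsd17b4 by 0.16 (adjusted p 0.0489, 0.0253 and 0.0148). Acads was not called without untreated replicate 1 or 2 or Pam3 replicate 1 or 2 (adjusted p 0.0829, 0.326, 0.154 and 0.18), with limma-trend (0.0575) or with a replicate block (0.0644). Etfdh was not called without untreated replicate 2 or Pam3 replicate 2 or 3 (0.111, 0.052 and 0.143), and Hsd17b4 without Pam3 replicate 3 (0.107). In cells with TGFβ, Acads fell by 0.26, Hsd17b4 by 0.29, Etfb by 0.24 and Crot by 0.37, with adjusted p of 0.00381, 1.37e-05, 0.00365 and 0.00027, and these held under every alternative. Hadhb fell by 0.32 there (adjusted p 0.0288), which was lost without TGFβ replicate 1 or Pam3+TGFβ replicate 3 (0.157 and 0.0882). Abcd3 fell by 0.17 (adjusted p 0.0372), which was lost without TGFβ replicate 2 or 3 or Pam3+TGFβ replicate 2 or 3 (0.0583, 0.066, 0.0759 and 0.0931). Eci2 rose by 0.17 (adjusted p 0.0359), which was lost with upper-quartile scaling (0.185) and without the same libraries (0.172, 0.128, 0.266 and 0.0621). Ehhadh and Phyh were not called for Pam3.

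Of the peroxins, Pex14 and Pex11a fell with Pam3 in both conditions. Pex14 was at 31.4, 33.8 and 30.1 CPM untreated, 26.3, 26.5 and 25.2 CPM with Pam3, 37.7, 37.8 and 34.5 CPM with TGFβ, and 28.7, 29.1 and 30.2 CPM with both, without overlap. Pex14 fell by 0.29 and 0.32 (SE 0.07 each, adjusted p 0.00477 and 0.000554). Pex11a fell by 0.21 and 0.23 (adjusted p 0.0377 and 0.00826). The first Pex11a call was lost when any 1 of the 6 libraries compared was left out: untreated replicates 1 to 3 (adjusted p 0.0987, 0.0562 and 0.0588) and Pam3 replicates 1 to 3 (0.0734, 0.128 and 0.075). Pex10 was at 7.83, 7.23 and 8.25 CPM with TGFβ and 6.66, 5.94 and 4.65 CPM with both, and 8.52, 9.19 and 7.16 CPM in untreated against 7.54, 8.76 and 7.59 CPM in Pam3 cells. Pex10 fell with Pam3 in the presence of TGFβ by 0.44 (SE 0.14, adjusted p 0.0115; 0.0831 without Pam3+TGFβ replicate 3), and its value without TGFβ was -0.06 (adjusted p 0.829). Pex6 fell by 0.20 with Pam3 in cells with TGFβ (adjusted p 0.0423), which was lost without TGFβ replicate 1 or 3 or Pam3+TGFβ replicate 1 or 2 (0.103, 0.0564, 0.106 and 0.0576). Pex2 and Pex5 rose there by 0.19 and 0.17 (adjusted p 0.0134 and 0.0352). Both calls were lost with upper-quartile scaling (0.0904 and 0.175), that of Pex2 also without TGFβ replicate 2 or 3 or Pam3+TGFβ replicate 2 (0.0831, 0.104 and 0.123), and that of Pex5 without TGFβ replicate 2 or 3 or any Pam3+TGFβ replicate (0.0801 to 0.204). Pex7, Pex13, Pex16 and Pex19 were not called for Pam3.

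Among the lipases, Pnpla2 fell with Pam3 by 0.36 without TGFβ (SE 0.06, adjusted p 4.33e-05) and by 0.18 with it (SE 0.06, adjusted p 0.0176). In cells with TGFβ the Pnpla2 libraries overlap, and the call was lost without TGFβ replicate 3 or Pam3+TGFβ replicate 1 (adjusted p 0.0508 and 0.0815). Lipe rose by 0.27 with Pam3 in cells with TGFβ (SE 0.09, adjusted p 0.0216), a call lost with upper-quartile scaling (0.0727) and without TGFβ replicate 2 or 3 or Pam3+TGFβ replicate 2 or 3 (0.134, 0.123, 0.0876 and 0.0674). Mgll fell by 0.14 there (SE 0.05, adjusted p 0.0359), a call lost without TGFβ replicate 1 or 3 or Pam3+TGFβ replicate 2 or 3 (0.074, 0.0521, 0.0558 and 0.0849). Without TGFβ the values of Lipe and Mgll were 0.13 and -0.06, neither called. Ppargc1b was not called without TGFβ (-0.09, adjusted p 0.687) and fell by 0.38 with it (SE 0.12, adjusted p 0.0193; 0.0593, 0.0966 and 0.0881 without TGFβ replicate 2, TGFβ replicate 3 or Pam3+TGFβ replicate 2). Decr1 likewise fell by 0.50 with TGFβ (SE 0.11, adjusted p 0.000921) and was at -0.10 without it (adjusted p 0.569). Cat was not called for Pam3 in either condition (0.02 and 0.03, adjusted p 0.845 and 0.614).

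Whether TGFβ changed the response to Pam3 was tested by the interaction, the response with TGFβ minus that without it. It was called for 6 of the 39 genes, 4 higher and 2 lower, which is 15.4%, where 15.9% of all tested genes were called (10.3% higher, 5.67% lower), a share near the background. At the members' levels the background was 21.9% (14.4% higher, 7.55% lower). With upper-quartile scaling the split was 2 higher and 3 lower among the members and 1255 and 1097 among all tested genes, where it was 1516 and 836 with the main scaling. The genes with a higher value were Acadl, Acaa1a, Pex5 and Eci2, and those with a lower value Acox3 and Cpt1a.

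The Acadl response to Pam3 was -0.21 without TGFβ and 0.14 with it, a difference of 0.35 (SE 0.08, adjusted p 0.00266). The Acox3 response was larger in size with TGFβ by 0.27 on the log2 scale (interaction -0.27, SE 0.06, adjusted p 0.00171). These 2 interactions were called under each of the 19 alternatives run for them. Acaa1a was at 134, 152 and 120 CPM untreated, 144, 144 and 135 CPM with Pam3, 135, 138 and 125 CPM with TGFβ, and 176, 176 and 171 CPM with both. The libraries with both agents were above the other 9. The Acaa1a response was 0.06 (adjusted p 0.561) without TGFβ and 0.40 (SE 0.06, adjusted p 1.89e-05) with it. The interaction was 0.33 (SE 0.09, adjusted p 0.0112) and was not called without TGFβ replicate 3 (0.0522).

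Acaa1a shares exons or sequence with other genes, which may bear on its count. Its exons overlap those of Myd88, the adaptor of TLR signalling on the other strand, over 172 bp or 9.52% of its transcript. Myd88 was at mean levels of 153, 113, 177 and 218 CPM in the untreated, TGFβ, Pam3 and Pam3+TGFβ groups, with a Pam3 response of 0.95 in cells with TGFβ (adjusted p 1.49e-14). Of the Acaa1a stretches of 100 bases, 21.1% also occur in Acaa1b, a second peroxisomal thiolase, which was at 29.7, 133, 27.2 and 91.2 CPM in the same groups. The strand setting of the counting is not stated, and the part of either gene in the Acaa1a values was not tested.

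The other 3 interactions depended on single libraries. That of Cpt1a was -0.18 (SE 0.06, adjusted p 0.0325) and was lost in 10 of 19 alternatives, among them the fits without untreated replicate 2, TGFβ replicate 2 or 3, any Pam3 replicate, or Pam3+TGFβ replicate 1 or 2, with adjusted p from 0.0513 to 0.138. Eci2 was at 78.6, 77 and 68.5 CPM untreated, 72.3, 69.3 and 68 CPM with Pam3, 63.8, 59 and 60.6 CPM with TGFβ, and 65.6, 73.8 and 66.6 CPM with both. Its interaction of 0.26 (SE 0.09, adjusted p 0.0419) was lost in 11 of 19, with upper-quartile scaling (0.0968) and without any 1 library other than untreated replicate 3 and Pam3 replicate 1 (0.0514 to 0.169). Pex5 was at 39.8, 42.9 and 39.7 CPM untreated, 39.8, 38 and 35.3 CPM with Pam3, 41.9, 38.8 and 37.8 CPM with TGFβ, and 44.2, 43.9 and 45.4 CPM with both. Its interaction of 0.29 (SE 0.09, adjusted p 0.0322) was lost in 10 of 19, with upper-quartile scaling (0.0734) and without any 1 library other than untreated replicate 3, TGFβ replicate 1 and Pam3 replicate 1 (0.0555 to 0.127). For Decr1, Ppargc1b and Mgll the interaction was not called (-0.39, -0.29 and -0.08, adjusted p 0.0888, 0.3 and 0.57), and for Pex11a it was -0.02 (adjusted p 0.946). Over the 4 comparisons, Ehhadh, Etfa, Pex7, Pex13 and Pex19 were called in none, nor were they for the interaction.

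The rest of the pathway was described with 3 fixed lists. Of 51 tested further genes of fatty acid activation, oxidation and peroxisomes, 18 were called higher and 14 lower with TGFβ without Pam3 and 15 and 15 with it, and 6 higher and 11 lower with Pam3 without TGFβ and 6 and 20 with it. These are 62.7% and 58.8% called for TGFβ, where 61.2% and 54.8% of genes at the members' levels were, and 33.3% and 51% for Pam3, where 25.4% and 49.5% were. Over all tested genes the backgrounds were 51% and 45.3% for TGFβ and 18.3% and 38.5% for Pam3, and they apply to the next lists too. Acaa1b was the largest rise with TGFβ among them (log2 fold change 2.16, adjusted p 4.39e-19, and 1.74, adjusted p 4.35e-17). Acsl1, which activates long-chain fatty acids, rose with Pam3 by 0.66 without TGFβ and 1.05 with it (SE 0.05 each, adjusted p 1.59e-09 and 2.83e-14), and Acsl4, which prefers arachidonic acid, by 0.44 and 0.81 (SE 0.05 each, adjusted p 9.5e-07 and 3.87e-12). Pxmp4, a peroxisomal membrane protein, fell with Pam3 by 0.58 and 1.04 (adjusted p 2.73e-05 and 6.08e-10).

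Of 17 tested PPAR targets and coregulators, 9 were higher and 3 lower with TGFβ without Pam3, and 9 and 4 with it; with Pam3, 1 was higher and 7 lower without TGFβ, and 4 and 8 with it. The shares called were 70.6% and 76.5% for TGFβ (51% and 45.3% over all tested genes, 61.2% and 54.8% at the members' levels) and 47.1% and 70.6% for Pam3 (18.3% and 38.5%, or 25.4% and 49.5%). Cd36, a scavenger receptor that takes up fatty acids, was at 456 ± 13.9 CPM (SD, n = 3) in untreated and 51.2 ± 4.05 CPM in TGFβ cells, and fell by 3.15 and 2.93 on the log2 scale without and with Pam3 (adjusted p 9.56e-20 and 3.26e-19). Fabp4, a cytosolic fatty acid carrier, was at 31.1 ± 1.12 CPM in untreated cells and 0.132 ± 0.0507 CPM with TGFβ, where its 3 libraries held 6, 3 and 6 counts. Other genes of this list went up with TGFβ. Angptl4 was at 1516, 1798 and 1383 counts untreated and 5721, 6549 and 5832 with TGFβ, and Ucp3, at low counts, at 8, 4 and 5 against 33, 51 and 36. Pparg, the nuclear receptor that is needed for alveolar macrophages, was at 117 ± 3.95 CPM in untreated, 225 ± 4.03 CPM in TGFβ, 89.1 ± 2.33 CPM in Pam3 and 172 ± 3.92 CPM in Pam3+TGFβ cells, with no overlap between the libraries of any 2 groups, and fell by 0.39 with Pam3 without TGFβ (adjusted p 4.1e-07). Acot1, a cytosolic acyl-CoA thioesterase, was at 18.5 ± 0.703 CPM with TGFβ and 5.98 ± 0.49 CPM with both agents, and fell by 1.63 with Pam3 there (adjusted p 1.71e-10). Its fall of 0.54 with Pam3 without TGFβ (adjusted p 0.00718) was lost without untreated replicate 2 or Pam3 replicate 1 (0.0782 and 0.0663).

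Of 10 tested genes of triglyceride turnover, 6 were higher and 2 lower with TGFβ without Pam3, and 4 and 4 with it; with Pam3, 3 were lower without TGFβ, and 2 were higher and 4 lower with it. That is 80% called for TGFβ in both conditions (51% and 45.3% over all tested genes, 61.2% and 54.8% at the members' levels), and 30% and 60% for Pam3 (18.3% and 38.5%, or 25.4% and 49.5%). Dgat2, which makes triglyceride, was at 1.63 ± 0.556 CPM in untreated, 15.5 ± 1.11 CPM in TGFβ, 2.46 ± 0.547 CPM in Pam3 and 39.8 ± 5.45 CPM in Pam3+TGFβ cells. Its TGFβ effect was 3.23 without Pam3 and 4.03 with it (SE 0.18 and 0.17, adjusted p 7.57e-12 and 1.17e-13). G0s2, an inhibitor of Pnpla2, was at 1.6 ± 0.446, 6.71 ± 0.911, 1.01 ± 0.302 and 1.9 ± 0.19 CPM in the same order of groups. G0s2 rose with TGFβ by 2.07 without Pam3 (SE 0.23, adjusted p 2.39e-08) and fell with Pam3 in cells with TGFβ by 1.82 (SE 0.22, adjusted p 2.55e-07).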

How the data were processed

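Polyadenylated RNA of 12 FLAM samples, 3 in each of 4 groups taken from the titles, was sequenced on a NovaSeq, per the labels' protocols. Per the submitters' processing notes, bcl2fastq 2.20.0, FastQC 0.11.7, Bowtie2 2.4.1 on GRCm39, featureCounts of Subread 2.0.0 and DESeq2 1.36.0 in R 4.2.1 were used. The annotation, strand setting and treatment of reads with several matches are not given in the sources used here. Bowtie2 does not split reads over introns, so reads over exon junctions can be lost. The deposited counts are whole reads per gene symbol, made by the authors without normalization. The deposited normalized signal equals the count divided by 1 constant per library, set by the authors, and entered 1 alternative only. All columns of both tables were mapped to samples.

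From the counts, genes passing filterByExpr of edgeR 4.0.16 (minimum count 10) in R 4.3.3 were scaled with TMM and tested with the quasi-likelihood test (robust) on all 12 libraries with 4 group means. Adjusted p-values are Benjamini-Hochberg over 14749 genes, and SE is the log2 fold change over the square root of F. Counting floors cover counting error only, since the reads carry no molecular identifiers. No 2 replicates had counts equal within sampling noise. Transcript lengths and exons come from GENCODE M39 (GRCm39), using the canonical transcript. The procedure was tested on simulated counts.

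Alternatives were RLE and upper-quartile scaling, DESeq2 1.42.0, limma-trend (limma 3.58.1) on log2 of the normalized signal plus 1, a stricter filter (10 counts or more in all libraries) and none, a replicate block, only the libraries compared, and leaving out each library. The 40 members, the lists and the tests were chosen with earlier results of these data known. Values in every library are given for up to 5 called members per comparison with the largest change and at least 10 counts in each library of the higher group, and always for Cpt1a, Acadl, Acadm, Hadha, Cat, Ppara, Ppargc1b, Pnpla2, Lipe and Mgll. Up to 3 called genes per further list and comparison could be named, and part of them are. The library values of Acadvl and Hsd17b4, the values of Pparg in all groups and the counts of Angptl4 were added after they were seen.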

Additional observations from a re-analysis of the deposited data

Results flagged for a closer look

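For 6 members the response to Pam3 differed between cells with and without TGFβ by the interaction test of edgeR (adjusted p under 0.05 over all tested genes). The difference in log2 fold change, with TGFβ minus without, was 0.345 for Acadl, 0.333 for Acaa1a, 0.286 for Pex5, 0.264 for Eci2, -0.268 for Acox3 and -0.182 for Cpt1a. The estimates without and with TGFβ had opposite signs for Acadl (-0.21 and 0.14), Pex5 (-0.11 and 0.17) and Eci2 (-0.10 and 0.17). The share of members with such a difference, 15.4%, was near that of all tested genes, 15.9%. Acadl and Acox3 were called under every alternative run. Acaa1a was lost in 1 of 19, Cpt1a and Pex5 in 10 of 19 each, and Eci2 in 11 of 19. With 3 libraries a group, single libraries were not screened as outliers.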

How the results depend on the processing

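No called member changed sign under any alternative. Of the 11 and 24 calls for Pam3 without and with TGFβ, 5 and 13 were kept under every alternative, of the 19 and 25 calls for TGFβ without and with Pam3, 16 and 19, and of the 6 interactions, 2. Fitting only the libraries compared gave 6 members lower with Pam3 without TGFβ, where the count over all tested genes is not given. Upper-quartile scaling gave 1 member higher with Pam3 in cells with TGFβ and 2 higher interactions. Limma-trend and the fit with no filter each gave 1 lower interaction, again without a count over all tested genes beside it. For the compared libraries, limma-trend and no filter, the member counts thus stand without a background, and nothing is drawn from them. With upper-quartile scaling, 2477 of all tested genes were higher with Pam3 in cells with TGFβ, and 1255 had a higher interaction. With no filter, Pex11a lost its call for Pam3 without TGFβ (adjusted p 0.0673), Abcd3, Pex5, Pex6 and Mgll theirs for Pam3 with TGFβ (0.0906, 0.0563, 0.073 and 0.0513), and Acadl its call for TGFβ with Pam3 (0.0875, and 0.0513 with 10 counts in every library). In fits of only the libraries compared, Cpt1a, Acads, Etfdh, Hsd17b4 and Pex11a were not called for Pam3 without TGFβ (0.0607, 0.107, 0.0671, 0.0514 and 0.0896), nor Hadha for TGFβ without Pam3 (0.0746). The cause of these differences was not tested, except that the fit of the compared libraries has fewer samples. With upper-quartile scaling, values near 0 that were not called could turn sign. Among them were the Cat response to Pam3 with TGFβ (-0.0323) and the interactions of Hadha (-0.037) and Cat (-0.0324).

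Leaving out each library in turn gave 0 to 2 members higher (2 without untreated replicate 2) and 7 to 14 lower with Pam3 without TGFβ, 1 to 5 higher with Pam3 in cells with TGFβ, and 1 to 4 higher and 1 to 3 lower interactions. In the same fits 1046 to 1524 of all genes were higher (1524 without untreated replicate 2) and 919 to 1348 lower with Pam3 without TGFβ, 2465 to 2667 higher with Pam3 in cells with TGFβ, and 1151 to 1583 higher and 622 to 886 lower interactions. The 7 members lower were without Pam3 replicate 3 and the 14 without untreated replicate 3, where 1028 and 1348 of all genes were lower, against 1278 with every library. The log2 fold change of Cat ranged from -0.00579 to 0.0442 for Pam3 without TGFβ and from -0.0101 to 0.0319 with it, and its interaction from -0.0307 to 0.0421. That of Pnpla2 for TGFβ with Pam3 ranged from -0.00668 to 0.1, and the interaction of Hadha from -0.0568 to 0.0598.

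The titles give each group replicates 1 to 3, and the labels do not say that a number pairs samples. Same-numbered libraries had correlations of their deviations from the group means of -0.174 to 0.3, over 0.1 in 7 of 18 pairs. Of the 12 libraries, 5 correlated best with their own number. The correlations of replicate 3 were all positive (0.0332 to 0.3), and those of replicates 1 and 2 had both signs. With 3 libraries a group, this check cannot decide whether same-numbered samples were paired. With the number as a replicate block, 0 members were higher and 11 lower with Pam3 without TGFβ, 7 and 19 with TGFβ, 10 and 11 for TGFβ without Pam3, 15 and 12 with Pam3, and 4 and 2 for the interaction. In the same order, 9.84% and 8.81%, 20.5% and 18.2%, 23.1% and 28.2%, 21.8% and 23.9%, and 10.4% and 5.8% of all tested genes passed the test upwards and downwards in the fit with the block.

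Low counts kept Ppara out of the tests. Among the other members, the SE for Pam3 without TGFβ was larger for Pex10 (0.13), at 8.29 CPM untreated, than for Cat (0.04), at 238 CPM, and the smallest change called was that of Hadha for TGFβ with Pam3 (-0.14). Genes that share sequence or exons with others (Hadhb, Etfb, Etfdh, Acaa1a, Hadha) carry the counting limits given beside them.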
